A study of Homo sapiens with 4 samples.

Results

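The DNA replication and S phase genes were 45 human gene symbols, listed by name for their roles in origin licensing, the replication fork, nucleotide supply and E2F-driven expression, and looked up in the symbol column of the comparison table the authors deposited. Of the 45, 44 were found there and had fragment counts, and UHRF1 was not matched and has no value here. All 44 passed the filter on low counts, out of 62069 genes counted and 17172 tested. The cells were KMS11, an established line of the plasma cell cancer multiple myeloma, with the translocation t(4;14), which raises expression of the histone H3 lysine 36 methyltransferase NSD2. The control group (2 libraries) carried a control shRNA, and the group with the genotype label NSD2 Knockdown (2 libraries, titled shM2) carried an shRNA against NSD2. Both groups were infected with lentivirus in polybrene at 10 µg/mL and collected at 96 h, of which 72 h followed the change to growth medium. A single line was used. Separate cultures are not named in the labels, so the p-values cover the spread among these 4 libraries alone, and that spread may be technical.

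Before S phase, the origin recognition complex with CDC6 and CDT1 loads the MCM2-7 helicase onto DNA, and CDC45 and the GINS complex then turn it into an active fork. DNA polymerases, the sliding clamp PCNA and its loader RFC copy the strands, while ribonucleotide reductase and thymidylate synthesis supply deoxynucleotides. Much of this set is transcribed around the passage from G1 to S phase under E2F factors, which cyclin E with CDK2 helps to release from RB, and E2F7 and E2F8 repress the same targets later in the cycle.

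The E2F recognition motif is shown first because it is the sequence by which E2F factors reach their targets. The list was chosen in part for E2F-driven genes, so the share of windows that hold the motif is partly set by that choice and is given as a description. Windows from 250 bases before to 50 bases after the start of transcription were available from RefSeq (GRCh38.p14) for 39 of the 44 genes. For a gene with several starts, only the start farthest upstream was used. The letters TTTGGCGC, TTTCCCGC, TTTGCCGC and TTTCGCGC were searched on both strands, with overlapping matches on opposite strands counted separately. At least 1 of them was in 20 of the 39 windows (51.3%), beside 911 of 27305 windows of all genes (3.34%). The letters CCAAT, searched the same way, were in 21 of the 39 (53.8%) and in 35.7% of all windows. Of the 27 E2F matches, 22 lay within 100 bases of the start. Stretches of 28 bases around a match are printed 5′ to 3′ on the strand of the gene, with the motif or its reverse complement in capitals, for 4 genes of the MCM2-7 helicase and for PCNA, EXO1, CLSPN and E2F1, whose values follow:
MCM2: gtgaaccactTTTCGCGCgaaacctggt
MCM3: gttcggaagtTTTCGCGCcggggtggag
MCM6: gtcaggtttgGCGCGAAAtctccagctc
MCM7: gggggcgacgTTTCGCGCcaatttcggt
PCNA: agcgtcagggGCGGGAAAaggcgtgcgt
EXO1: aaggtcagccTTTCGCGCgctgtgtagg
CLSPN: ctctggctggGCGGGAAAgcaagaacag
E2F1: gcaaaaaggaTTTGGCGCgtaaaagtgg
On GRCh38.p14 these are chr3:127598403-127598430 (plus strand) for MCM2, chr6:52284729-52284756 (minus) for MCM3, chr2:135876512-135876539 (minus) for MCM6 and chr7:100101389-100101416 (minus) for MCM7. The others are chr20:5126664-5126691 (minus) for PCNA, chr1:241848198-241848225 (plus) for EXO1, chr1:35769966-35769993 (minus) for CLSPN and chr20:33686388-33686415 (minus) for E2F1. In MCM2, EXO1, CLSPN, MCM3 and MCM7 the printed match lay within 9 bases of the start, and in MCM6 it lay 86 bases before it. The windows of RRM2 and CCNE1 held none of the 4 strings of letters, and their other starts and other forms of the motif were not searched.

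The libraries held 46728940 to 55059566 fragments, and single members were covered by 773 to 43205 fragments per library. The targeted gene NSD2 had levels of 1121 and 1471 CPM (fragment counts divided by the TMM-scaled size of the library) in the controls (libraries 1 and 2), beside 919 and 1156 CPM for knockdown (1 and 2). The groups overlapped, since knockdown library 2 was above control library 1. The difference was -0.32 on the log2 scale (SE 0.150, edgeR quasi-likelihood test, adjusted p = 0.244), and it passed with control 1 (adjusted p = 0.0196) or knockdown 2 (adjusted p = 0.0268) left out, at -0.50 in both fits. It was -0.12 with control 2 left out (edgeR adjusted p = 0.731) and -0.16 with knockdown 1 left out (edgeR adjusted p = 0.632). The directions given here compare libraries as they are labelled. Mitochondrial genes took 5.82 to 5.89% of the fragments in 3 libraries and 6.81% in knockdown library 2. Plasma cell markers SDC1, XBP1, IRF4, PRDM1, TNFRSF17 and MZB1 were at 145 to 1233 CPM in the 4 libraries. CD38 was at 1.54 and 0.70 CPM in the controls and at 0.29 and 0.0369 CPM in the knockdown libraries. Its log2 difference was -2.82 (edgeR adjusted p = 0.0284), on only 2 to 78 fragments per library. Of 9 markers of other cell types, CD3E was at 2.56 to 4.33 CPM and the other 8 were at 1.12 CPM or less.

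Of the 44 replication and S phase genes, RRM2 and CCNE2 fell in the knockdown libraries and 0 rose (edgeR quasi-likelihood test, adjusted p below 0.05). That is 4.55% of the members, beside 5.93% of all genes tested, of which 4.19% were lower and 1.74% higher, so the share called was near the background. At an unadjusted p below 0.05 there were 11 members (25%), each of them lower in the knockdown libraries, beside 22.5% of all genes. At an adjusted p below 0.05, DESeq2 called 3 members lower and 0 higher, beside 733 lower and 358 higher of 17172 genes. For limma-voom these were 2 and 0 members, beside 716 and 291 genes. The median log2 fold change of the 44 was -0.12, with a range from -0.73 to 0.09, and the median of all genes was 0.00. Fold changes were below 0 in 35 members (79.5%, against 50.3% of all genes). The groups did not overlap in 16 members, all of them lower in the knockdown libraries. This was 36.4% of the list, where 26.2% of all genes tested had groups that did not overlap and were lower, and 53.2% had groups that did not overlap in either direction. For 37 members (84.1%) the 95% interval lay inside a 1.5-fold change in both directions, which held for 54.0% of all genes. The median of the members depended on single libraries. It was -0.03 with control library 1 left out, -0.18 for control 2, -0.23 for knockdown 1 and 0.00 for knockdown 2. The median of all genes in these fits ran from -0.01 to 0.01. In RNA pooled from all cells of a library, fewer cells in S phase and less RNA per S phase cell cannot be told apart. Counting was without regard to strand, and 12 members (MCM2, MCM7, GINS2, PRIM1, RFC4, RFC5, TYMS, CHAF1A, CHAF1B, BRCA1, FEN1 and CCNE2) share exon bases with another tested gene, so the gene of origin of fragments from those bases is uncertain.

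**Figure D1:**
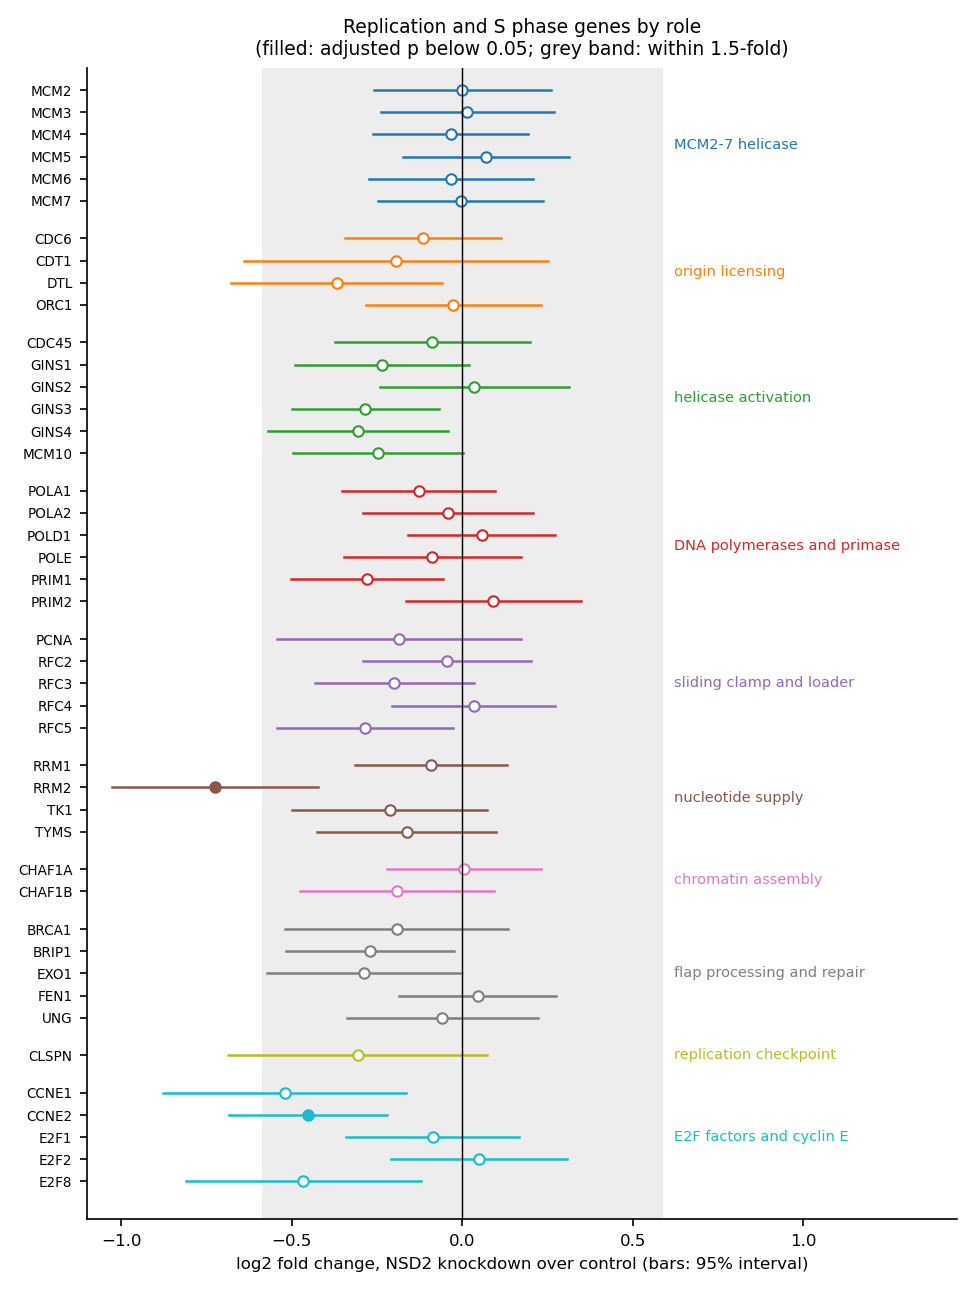
Log2 fold change of the knockdown over the control libraries (x axis) with its 95% interval for the 44 genes, ordered and coloured by role; filled circles passed the adjusted p of 0.05 and the grey band marks changes within 1.5-fold. RRM2 (-0.73) and CCNE2 (-0.45) are filled, and the 6 intervals of the MCM2-7 helicase lie inside the band.

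Among the genes of nucleotide supply, RRM2, the small subunit of ribonucleotide reductase, had the lowest fold change of the 44. RRM2 (ENSG00000171848, chr2:10262455-10271545 on GRCh37, plus strand) was at 855 and 691 CPM in the 2 controls, and 517 and 419 CPM in the knockdown libraries. Both knockdown libraries were below both controls. The means of 773 ± 116 and 468 ± 69.3 CPM (SD, n = 2 each) differed 1.65-fold, a fall of RRM2 by 0.73 on the log2 scale (95% interval -1.03 to -0.42, SE 0.135, edgeR adjusted p = 0.0137). RRM1, the large subunit of the same enzyme, was at 140.4, 128, 132 and 119.7 CPM in control 1, control 2, knockdown 1 and knockdown 2, so that its groups overlapped. The RRM1 log2 difference was -0.09 (95% interval -0.31 to 0.13, edgeR adjusted p = 0.643). Per exonic length, RRM2 had 5.13 and 4.55 times the RPKM of RRM1 in the control libraries, and 3.29 and 2.95 times in the knockdown libraries, with no overlap of the groups. The enzymes of thymidine nucleotide synthesis did not pass the test. TK1, thymidine kinase 1, had a log2 difference of -0.21 (95% interval -0.50 to 0.07), and TYMS, thymidylate synthase, one of -0.16 (95% interval -0.42 to 0.10).

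Cyclin E has 2 genes here, and both encode the partner of CDK2 at the entry into S phase. CCNE2 (ENSG00000175305, chr8:95891998-95908906 on GRCh37, minus strand) shares exon bases with INTS8, so its counts are uncertain to that extent. It was at 46.2 and 52.7 CPM in the 2 controls, and 37.5 and 34.8 CPM in the knockdown libraries, with no overlap. The means of 49.4 ± 4.55 and 36.1 ± 1.89 CPM differed 1.37-fold, a fall of CCNE2 by 0.45 on the log2 scale (95% interval -0.68 to -0.22, SE 0.104, edgeR adjusted p = 0.0333). This call was lost without control library 2 (edgeR adjusted p = 0.0579) and without knockdown library 2 (edgeR adjusted p = 0.154). CCNE1 was at 33.1 and 26.5 CPM in the 2 controls, and 24.0 and 17.6 CPM in the knockdown libraries. Its groups did not overlap either, but the 2 controls lay further apart than control 2 and knockdown 1. The CCNE1 log2 difference was -0.52 (95% interval -0.88 to -0.16, SE 0.160) with an edgeR adjusted p of 0.0917. CCNE1 passed with DESeq2 (adjusted p = 0.0397), and in edgeR with control 2 left out (adjusted p = 0.00297) or knockdown 1 left out (adjusted p = 0.000724). The CCNE1 difference was smaller with control 1 left out (-0.35, edgeR adjusted p = 0.125) and with knockdown 2 left out (-0.32, edgeR adjusted p = 0.430). Per exonic length, the ratio of CCNE2 to CCNE1 was 0.815 and 1.16 in the control libraries and 0.912 and 1.15 in the knockdown libraries, which overlap.

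The 3 E2F genes of the list had log2 differences from -0.47 to 0.05, and whether they differ from each other was not tested. E2F1, an activating E2F, was at 337, 302, 327 and 274 CPM in control 1, control 2, knockdown 1 and knockdown 2, and E2F2, another activator, at 293, 281, 328 and 265 CPM. Both overlapped between groups, with log2 differences of -0.09 (95% interval -0.34 to 0.17) for E2F1 and 0.05 (95% interval -0.21 to 0.31) for E2F2. E2F8, an atypical E2F that represses, was at 35.9 and 32.2 CPM in the controls, against 29 and 20.4 CPM in the knockdown libraries, without overlap. The E2F8 log2 difference of -0.47 (95% interval -0.81 to -0.12, SE 0.154) did not pass the test (edgeR adjusted p = 0.112). Without knockdown library 1 the E2F8 difference was -0.73 (edgeR adjusted p = 0.000757), and without control library 2 it was -0.55 (edgeR adjusted p = 0.0191). It did not pass without control library 1 (-0.38, edgeR adjusted p = 0.0843) or knockdown library 2 (-0.24, edgeR adjusted p = 0.639).

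**Figure D2:**
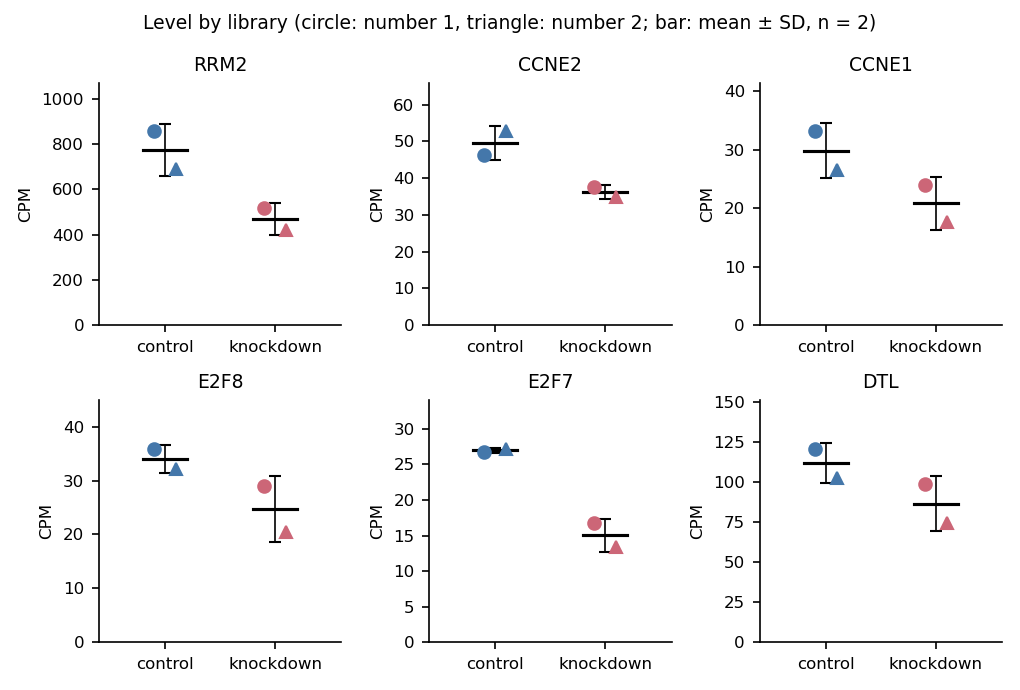
CPM (y axis, from 0) of RRM2, CCNE2, CCNE1, E2F8, E2F7 and DTL in the control and knockdown libraries; circles are library number 1, triangles number 2, and bars the mean ± SD over 2 libraries. In all 6 panels both knockdown points lie below both control points; RRM2 went from 855 and 691 to 517 and 419 CPM.

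The 6 subunits of the MCM2-7 helicase had knockdown levels near their control levels. MCM3 was at 425 and 403 CPM in the controls, against 459 and 378 CPM in the knockdown libraries. MCM7 was at 475 and 419 against 473 and 418 CPM, and MCM2 at 267 and 245 against 282 and 230.1 CPM. In these 3 subunits, and also in MCM4, MCM5 and MCM6, the groups overlapped. Fold changes of the 6 ran from -0.03 (MCM4, MCM6) to 0.07 (MCM5) on the log2 scale, and all 6 intervals at 95% lay inside a 1.5-fold change. The widest reach of any of these intervals was 0.31, in MCM5 (95% interval -0.17 to 0.31, edgeR adjusted p = 0.757). The sign for MCM4 turned with a term for GC content and length (0.10), so no direction is given for it. Although the 6 proteins form one ring, their RNA levels per exonic length differed, from 38.2 ± 2.14 RPKM (MCM5) and 38.4 ± 0.391 RPKM (MCM4) to 102 ± 9.10 RPKM (MCM7) and 104 ± 3.96 RPKM (MCM3) in the control libraries. The highest subunit had 2.74 to 2.86 times the RPKM of the lowest in the 4 libraries, so this ratio was near the same in both groups.

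In origin licensing no gene passed the test. DTL, a substrate receptor of the CUL4 ubiquitin ligase that targets CDT1, was at 121 and 103 CPM in the controls, against 99.0 and 74.4 CPM in the knockdown libraries. Its groups did not overlap, by a gap between control 2 and knockdown 1 that was smaller than the gap within either group. The DTL log2 difference was -0.37 (95% interval -0.68 to -0.06, SE 0.138, edgeR adjusted p = 0.155). DTL passed with control 2 left out (-0.48, edgeR adjusted p = 0.0183) and with knockdown 1 left out (-0.58, edgeR adjusted p = 0.00556). It was smaller with control 1 left out (-0.25, edgeR adjusted p = 0.226) and with knockdown 2 left out (-0.18, edgeR adjusted p = 0.743). CDT1, which loads the helicase, was at 124 and 83.6 CPM in the controls, against 108 and 73.7 CPM in the knockdown libraries, so the libraries of a group differed more than the groups. The CDT1 log2 difference was -0.19 with the widest interval of the licensing genes (95% interval -0.64 to 0.25). CDC6, a loading factor, was at 133 and 132 against 132 and 113 CPM, and ORC1, the largest subunit of the origin recognition complex, at 63.8 and 59.9 against 67.1 and 54.3 CPM. Their log2 differences were -0.11 for CDC6 (95% interval -0.34 to 0.11) and -0.03 for ORC1 (95% interval -0.28 to 0.23).

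Of the 6 genes that activate the helicase, none passed the test, and 4 had groups that did not overlap, all lower in the knockdown libraries (beside 26.2% of all genes). GINS3, a subunit of the GINS tetramer, was at 39.3 and 37.6 CPM in the controls, against 31.0 and 32.1 CPM in the knockdown libraries. GINS4, another subunit, was at 18.0 and 20.0 against 16 and 14.8 CPM. In GINS3 the gap between groups was larger than the gap within either group, and the log2 differences of GINS3 and GINS4 were -0.28 (SE 0.0963, edgeR adjusted p = 0.119) and -0.30 (SE 0.118, edgeR adjusted p = 0.167). GINS1 was at 54.2 and 48.7 against 47.8 and 39.7 CPM, and GINS2 at 62.7 and 54.9 against 67.1 and 53.5 CPM. The 4 subunits of this tetramer therefore had log2 differences of -0.24 (GINS1), 0.04 (GINS2), -0.28 (GINS3) and -0.30 (GINS4), and whether they differ from each other was not tested. MCM10, which acts as the fork starts, had a log2 difference of -0.25 (95% interval -0.50 to 0.00), and CDC45, the helicase cofactor, one of -0.09 (95% interval -0.37 to 0.20).

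The polymerases and primase did not pass the test in either direction. PRIM1, the catalytic subunit of primase, was at 36.7 and 34.1 CPM in the controls, against 29.8 and 28.6 CPM in the knockdown libraries, with no overlap. PRIM2, its partner subunit, was at 27.7 and 25.7 against 30.7 and 26.2 CPM, which overlap. The log2 differences were -0.28 for PRIM1 (95% interval -0.50 to -0.06, edgeR adjusted p = 0.137) and 0.09 for PRIM2, the highest of the 44 (95% interval -0.17 to 0.35, edgeR adjusted p = 0.694). For polymerase alpha, which works with primase, the values were -0.13 (POLA1) and -0.04 (POLA2). For the catalytic subunits of the leading and lagging strand polymerases they were -0.09 (POLE) and 0.06 (POLD1). The 6 intervals of these genes lay inside a 1.5-fold change.

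PCNA, the sliding clamp, had the highest level per length of the list, and 0 of the 5 genes of clamp and loader passed the test. PCNA was at 309.5 and 228 CPM in the controls, against 267 and 205 CPM in the knockdown libraries, so libraries numbered 2 were the lower of each group. The PCNA log2 difference between groups was -0.19 (95% interval -0.54 to 0.17, edgeR adjusted p = 0.540). RFC5, a loader subunit, was at 37.1 and 33.3 against 31.2 and 26.6 CPM with no overlap, and RFC4 at 70.4 and 61.4 against 71.5 and 63.4 CPM with overlap. Their log2 differences were -0.29 for RFC5 (95% interval -0.54 to -0.03, edgeR adjusted p = 0.182) and 0.03 for RFC4 (95% interval -0.21 to 0.27). RFC2 and RFC3 had values of -0.04 and -0.20.

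The genes of chromatin assembly, flap processing, repair and checkpoint also did not pass. EXO1, an exonuclease of mismatch repair, was at 70.2 and 61.2 CPM in the controls, against 60.4 and 47.3 CPM in the knockdown libraries, with no overlap by a gap of under 1 CPM. Its log2 difference was -0.29 (95% interval -0.57 to 0.00, edgeR adjusted p = 0.221), and -0.47 with knockdown 1 left out (edgeR adjusted p = 0.0422). The EXO1 difference was -0.18 with control 1 left out (edgeR adjusted p = 0.398) and -0.13 with knockdown 2 left out (edgeR adjusted p = 0.868). BRIP1, a helicase that binds BRCA1, was at 22.1 and 24.0 against 19.7 and 18.5 CPM (log2 difference -0.27, 95% interval -0.52 to -0.02), and BRCA1 itself, a factor of homologous recombination, had a log2 difference of -0.19 (95% interval -0.52 to 0.13). FEN1, the flap endonuclease, was at 123 and 107 against 123 and 114 CPM (0.05, 95% interval -0.18 to 0.27), and UNG, the uracil glycosylase, had a log2 difference of -0.06. For the histone chaperone CAF-1, CHAF1B had a log2 difference of -0.19 and CHAF1A one of 0.00. CLSPN, the checkpoint mediator claspin, was split within the knockdown group: 40.7 and 48.5 CPM in the control libraries, 43.2 CPM in knockdown 1 and 29 CPM in knockdown 2. The CLSPN log2 difference was -0.31 (95% interval -0.69 to 0.07, edgeR adjusted p = 0.326). It was -0.62 without knockdown 1 (edgeR adjusted p = 0.00452), -0.42 without control 1 (edgeR adjusted p = 0.0475), -0.18 without control 2 (edgeR adjusted p = 0.568) and -0.05 without knockdown 2 (edgeR adjusted p = 0.963).

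Knockdown library 2 was the lowest of the 4 libraries in 40 of the 44 members (90.9%), which held for 27.3% of all genes tested. The highest library was control 1 in 21 members, knockdown 1 in 16 and control 2 in 7. Expressed as log2 CPM minus the mean of the gene over the 4 libraries, the median of the members was 0.10 in control 1, -0.02 in control 2, 0.08 in knockdown 1 and -0.17 in knockdown 2, while the median of all genes was 0.00 in each. Without knockdown library 2 the median log2 fold change of the members was 0.00, while RRM2 was at -0.59 and CCNE2 at -0.41. Knockdown library 2 is also the one with 6.81% mitochondrial fragments, and the part of that share in the result was not tested.

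**Figure D3:**
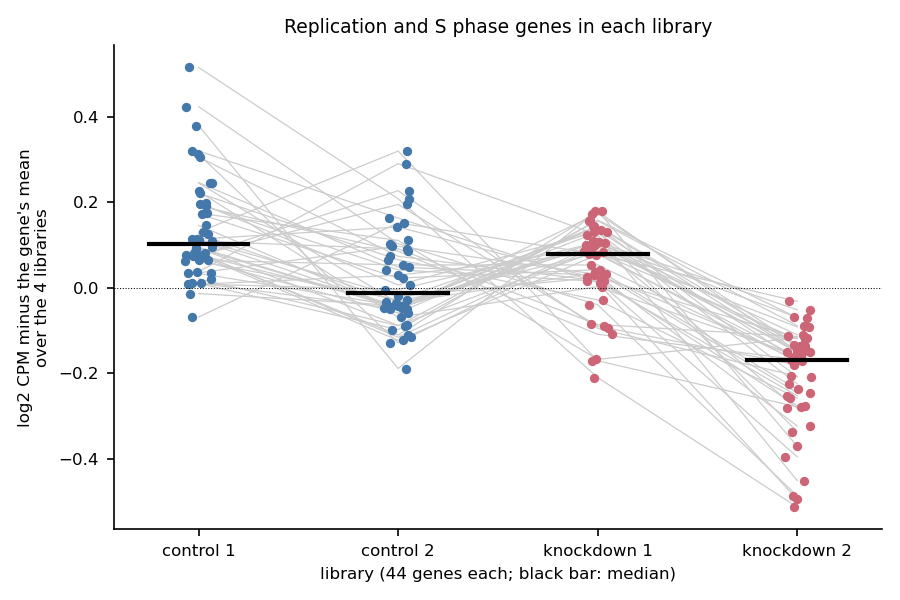
Log2 CPM minus the mean of the gene over the 4 libraries (y axis) for the 44 genes in each library (x axis); grey lines join the values of a gene, and black bars are medians. The medians are 0.10, -0.02, 0.08 and -0.17, with knockdown 2 the lowest library and knockdown 1 above control 2.

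The titles number the libraries 1 and 2 in both groups, and the labels do not say what the numbers mark. In 35 of the 44 members (79.5%) number 2 was lower than number 1 in both groups, which held for 30.0% of all genes, and in 0 members was it higher in both. In a fit with terms for group and number, 5 members differed between the numbers, all lower in number 2 (11.4%, beside 3.54% of all genes in either direction and 1.56% lower). They were CDT1 (-0.56 on the log2 scale, edgeR adjusted p = 0.000344), PCNA (-0.41, edgeR adjusted p = 0.00879), CCNE1 (-0.38, edgeR adjusted p = 0.0219), BRCA1 (-0.33, edgeR adjusted p = 0.0373) and DTL (-0.32, edgeR adjusted p = 0.0415). The median difference between the numbers was -0.18, with a range from -0.56 to 0.04, beside -0.12 for the difference between groups. CCNE2 had the highest value, 0.04 (edgeR adjusted p = 0.886), and RRM2 had -0.31 (edgeR adjusted p = 0.0645). The MCM2-7 genes, near 0 between groups, ran from -0.21 to -0.09 between numbers.

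**Figure D4:**
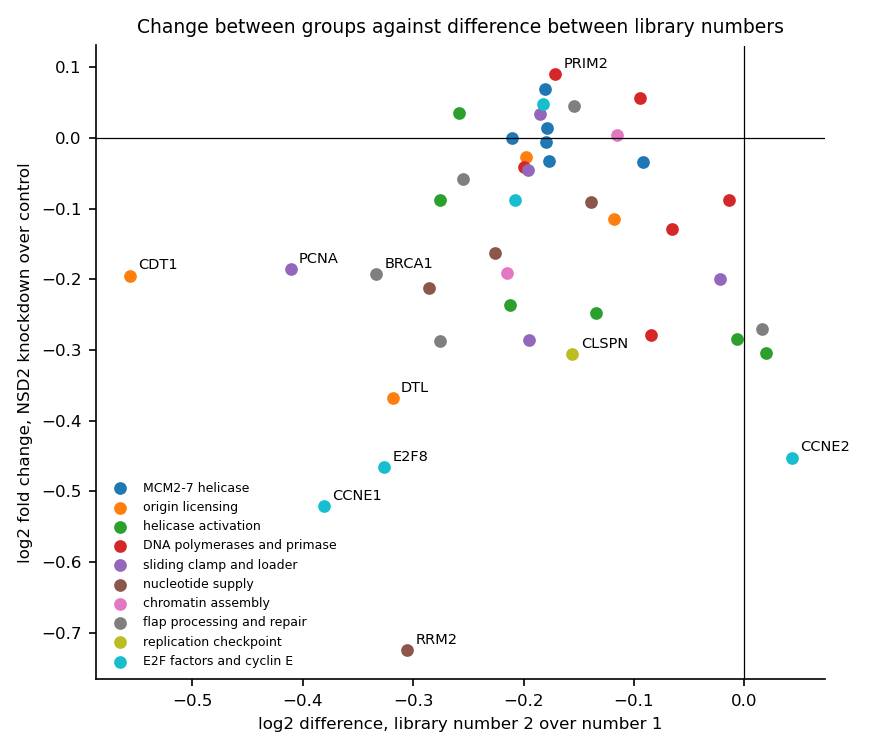
Log2 difference of library number 2 over number 1 (x axis) against log2 fold change of knockdown over control (y axis) for the 44 genes, coloured by role. CDT1 lies furthest left (-0.56) and RRM2 lowest (-0.73), while CCNE2 is low between groups (-0.45) and near 0 between numbers (0.04).

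The level of these genes per exonic length in the control libraries had a median of 22.4 RPKM, beside 3.29 RPKM for all genes tested. PCNA (183 ± 39.4 RPKM, SD, n = 2), RRM2 (156 ± 23.4), E2F1 (128 ± 10.0), TK1 (106 ± 14.8), MCM3 and MCM7 were the highest. The means of PCNA and RRM2 differed by less than the SD of PCNA and by more than the SD of RRM2. At the low end stood BRIP1 (2.89 ± 0.171 RPKM), GINS4 (3.47 ± 0.250) and PRIM2 (5.72 ± 0.314), each apart from the next by more than its SD. In the knockdown libraries PCNA was at 161 ± 29.6 RPKM, E2F1 at 120.1 ± 14.9 and RRM2 at 94.4 ± 14.0, so by mean RRM2 stood below E2F1 there and above it in the controls. The 2 inputs to licensing control, CDT1 and its inhibitor GMNN (geminin), had an RPKM ratio of 2.08 and 1.78 in the control and of 1.79 and 1.39 in the knockdown libraries, with the library numbered 2 the lower in each group.

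Another 96 genes of replication, in 5 lists that hold none of the 44, gave 1 fall and 0 rises by the same edgeR test (16 at an unadjusted p below 0.05), or 1.04% called beside 5.93% of all genes, and 16.7% beside 22.5% at the unadjusted p, with a median log2 fold change of -0.07. The 1 was E2F7 (ENSG00000165891, chr12:77415027-77459360 on GRCh37), the closest relative of E2F8 and like it a repressor of E2F targets. E2F7 was at 26.7 and 27.2 CPM in the controls, against 16.7 and 13.4 CPM in the knockdown libraries, with no overlap. It fell 1.79-fold, by 0.84 on the log2 scale (95% interval -1.12 to -0.55, SE 0.128, edgeR adjusted p = 0.00588). Its difference between library numbers was -0.14 (edgeR adjusted p = 0.573). Of the 5 lists, origin recognition and firing (17 genes) had a median of -0.04 and fork components (23 genes) one of -0.05. Nucleotide supply (17 genes) had a median of -0.02, the E2F, RB and CDK2 genes (21 genes) one of -0.13, and chromatin and sister chromatid genes of S phase (18 genes) one of -0.14.

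In the authors' deposited table, whose contrast is headed M2 over LUC, 0 of the 44 members had an adjusted p below 0.05, beside 1.85% of its genes, and 2 had an unadjusted p below 0.05. Those 2 in the authors' deposited table were RRM2 (log2 fold change -0.70, SE 0.260, adjusted p = 0.201) and CCNE2 (-0.43, SE 0.206, adjusted p = 0.561), the members called here. The authors' deposited table gave a median of -0.10 over the 44 and values below 0 for 33. E2F7 had a log2 fold change of -0.81 and a DESeq2 adjusted p of 0.0264 in the authors' deposited table. The base mean there (mean of normalized counts) was 19162 for MCM4, above its 12445 to 13254 fragments in the 4 libraries here. For E2F7 it was 523, below its 727 to 1348 fragments here. That model therefore did not rest on these 4 libraries alone, and its p-values come from a model that held other libraries. Its log2 fold changes were close to those here: -0.70 beside -0.73 (RRM2), -0.43 beside -0.45 (CCNE2) and -0.81 beside -0.84 (E2F7). The sign was the same in 42 of the 44 members. The M2 over LUC contrast may rest on these same libraries, which is not stated, so the matching fold changes are no independent support. The E2F motif was in 10 of the 19 windows of genes below the median fold change of the members (52.6%). It was in 10 of the other 20 (50%), and a link between motif and fold change was not tested. E2F8, CCNE2 and GINS4, also below that median, and MCM4 and MCM5 had no window and are not in this split. RRM2 and CCNE1, with no match in the windows searched, were the lowest and the next lowest of the 44 by fold change. Sites outside those windows or with other letters were not searched.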

How the data were processed

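RNA-seq libraries of KMS11 cells, 2 control and 2 NSD2 knockdown, were grouped by title. Per the submitters' processing notes, the authors used Trim Galore 0.3.7, STAR 2.5.3, Picard and featureCounts of Subread 1.4.6 on GRCh37. Per the file headers, the deposited counts are fragments per gene, counted without strand. The authors' DESeq2 table deposited for the series gives log2 fold changes with standard errors, a Wald statistic (a score), p-values, a base mean (a signal) and exonic length in bp; the libraries and version of that model are not given in the sources used here. It also supplied symbols and coordinates. Its 4 count columns stayed out, as did the 1 line of each count file that names no gene.

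The counts were fitted with edgeR 4.0.16 in R 4.3.3: TMM scaling, the default filter on low counts, group as the only term, quasi-likelihood F test, Benjamini-Hochberg adjustment over 17172 genes, threshold 0.05. The fit was tested on simulated data with the same variation for all genes. It recovered 29 of 65 genes changed 1.5-fold (44.6%), 53 of 65 changed 2-fold (81.5%) and 65 of 66 changed 4-fold (98.5%). Smaller changes were not simulated. The changed genes were drawn from all genes except those with the lowest counts, so these rates are not those of the members. With 2 libraries a group the exact permutation test cannot go below 0.333. The coefficient of biological variation was 9.81%. RPKM used the deposited exonic length. Libraries of a group were not duplicates: a chi-square between their counts came to 25.9 (control) and 22.7 (knockdown) per gene. A second fit with terms for group and number gave the differences between numbers. GC content came from GENCODE 29. Members had a median exonic length of 4159 bp and GC content of 48.2%, beside 3924 bp and 48.4% for all genes tested.

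Alternatives were RLE (median-ratio) and library-size scaling, no filter, a filter of 1 CPM in 2 libraries, DESeq2 1.42.0, limma-voom (limma 3.58.1), a replicate block, terms for GC content and length, both together, and leaving out each library; with 1 library left in a group, that library is assumed to vary like the other group. Genes described in full were those past the threshold in either edgeR fit, the highest and lowest fold change of each role, genes of the other lists past the threshold, and NSD2. The members, lists and rules were chosen with earlier results of these data known. Promoter windows were from RefSeq; MCM4, MCM5, GINS4, E2F8 and CCNE2 had none and were not analysed there.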

Additional observations from a re-analysis of the deposited data

How the results depend on the processing

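RRM2 and E2F7 passed the threshold in all 11 alternatives without a block (edgeR, DESeq2 or limma adjusted p up to 0.0277 and 0.0117), with log2 fold changes from -0.88 to -0.56 and from -1.0 to -0.69. CCNE2 passed in 9 of 11. Without a filter, 2148 of 31645 genes and 5 of the 44 members were called between groups. The 5 were RRM2, CCNE2, DTL (edgeR adjusted p = 0.0137), CCNE1 (edgeR adjusted p = 0.00124) and E2F8 (edgeR adjusted p = 0.00390). Between library numbers 8 of the 44 members were called without a filter. The share over all genes was not counted in that fit, so nothing is read from this number of members. Leaving out single libraries gave 822 to 2024 genes, 1 to 8 members and medians of -0.23 to 0.00. The upper ends of these ranges belong to different fits: most genes were called without control library 1, and most members without knockdown library 1. Each of these fits leaves 1 library in a group, so their calls are not weighed against the background. With GC content and length terms 621 genes were lower and 661 higher, beside 719 and 299 without them. With these terms the median of all genes moved by 0.07, and 2 members were called. NSD2 passed without a filter (adjusted p = 0.0173), without control 1 (0.0196) and without knockdown 2 (0.0268), and its log2 difference was 0.00 with GC content and length terms. The causes were not tested.

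With library number as a replicate block, 3319 genes (19.3%, of which 11.6% of all genes lower) and 10 members (22.7%) were called. All 10 members were lower: RRM2, CCNE2, CCNE1, E2F8, DTL, GINS3, GINS4, PRIM1, RFC5 and EXO1. NSD2 had an adjusted p of 0.0197. The block with GC content and length terms called 5058 of 16533 genes, 1835 of them lower and 3223 higher. It called 14 of the 44 members, 13 of them lower and 1 higher. In that fit the median log2 fold change was 0.07 over all genes and -0.08 over the members. Deviations of libraries with the same number correlated at 0.333 over 17172 genes. With 2 pairs, and labels that tie the numbers to nothing, this does not pair the samples, and the block leaves 1 residual degree of freedom.

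Among the genes described in full, signs turned only for genes that were not called. CHAF1A was at -0.01 with library-size scaling and with the filter of 1 CPM. MCM4 was at 0.10 and ORC1 at 0.02 with GC content and length terms, and at 0.09 and 0.01 with the block added. Ranges without 1 library were -0.10 to 0.10 for CHAF1A, -0.13 to 0.06 for MCM4, -0.18 to 0.11 for ORC1, -0.13 to 0.18 for GINS2, -0.07 to 0.14 for RFC4, -0.06 to 0.15 for FEN1, -0.05 to 0.18 for MCM5, -0.02 to 0.19 for PRIM2 and -0.11 to 0.19 for E2F2. Members were covered by 773 to 43205 fragments per library, and the limits set by depth and by the number of libraries were not compared.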

Other observations

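The genes of mitosis, which follow S phase in the cell cycle, were measured for comparison. Of 32 such genes, 0 passed the edgeR test between groups, beside 5.93% of all genes tested. An unadjusted edgeR p below 0.05 was found in 3 of the 32, beside 22.5% of all genes. Their median log2 fold change was 0.03, with a range from -0.49 (MKI67, the proliferation marker) to 0.29 (CCNB1, cyclin B1). MKI67 was at 456 and 532 CPM in the control and at 404 and 297 CPM in the knockdown libraries (edgeR adjusted p = 0.0808). CCNB1 was at 146 and 140.1 against 175 and 176 CPM (edgeR adjusted p = 0.0912). These 2 genes were chosen as the ends of the range after their values were seen. Library number 2 was lower than number 1 in both groups in 25 of the 32, which held for 30.0% of all genes. The median difference between numbers over the 32 was -0.10.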
